A study of Mus musculus with 9 samples.

Results

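The genes Bmp1, Bmp2, Bmp4, Bmp7 and Bmp8b were taken by their symbols from the RNA-seq count tables of sorted, differentiating mouse pluripotent stem cells (PSCs). These are 5 of the 56691 genes in the tables, and 5 of 5 passed the filter on low counts that left 16903 genes for testing. There were 9 libraries, which address what NRF1 overexpression (OE) does in cells sorted as primordial germ cell-like cells (PGCLCs, BV+) and in the somatic cells beside them (BV-). The groups were BV+ cells with NRF1 OE (n = 2), BV+ cells with empty vector control (Ctrl, n = 2), BV- cells with NRF1 OE (n = 3), and BV- cells of the control arm (n = 2).

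All groups came from embryoid bodies of the same line, BVSC, in which Blimp1-mVenus (BV) and Stella-CFP (SC) report on those genes, and the labels give the cell type of every library as pluripotent stem cells. NRF1 came from a doxycycline (DOX)-inducible p20 vector. Cells with Ctrl carried the empty vector and also received DOX, at 1.5 µg/mL from day 2 to day 5. The study's methods place the sorting of BV+ cells at day 5 of differentiation and speak of biological replicates, while the labels do not say whether the libraries came from separate differentiations. If they did not, p-values measure only the spread between these libraries, which may be technical.

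Bone morphogenetic proteins (BMPs) are secreted signals of the TGF-beta family. They are cut from precursors by convertases such as furin, are held back outside the cell by binders such as noggin, and act through paired type I and type II receptors that phosphorylate SMAD1, SMAD5 and SMAD9, after which target genes such as the Id genes are transcribed. In the mouse embryo, BMP4 and BMP8B from the extraembryonic ectoderm and BMP2 from the visceral endoderm act on the epiblast when the first germ cell precursors appear. BMP7 is a ligand of wider expression. Bmp1 carries the same name but encodes no ligand of the family: it is an astacin-type metalloprotease that trims procollagens and also cleaves the BMP antagonist chordin.

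NRF1 is a transcription factor that binds a GC-rich palindrome, so the promoter stretches at hand were searched for it. RefSeq promoters (GRCm38.p6, 250 bases before to 50 bases after a start site) were at hand for 2 members, Bmp4 and Bmp8b. The 250 bases before each start are shown 5′ to 3′ on the gene's strand, with every GCGC in capitals, the tetramer at both ends of the NRF1 consensus. The Bmp4 stretch lies at chr14:46390670-46390919 on the minus strand, and the Bmp8b stretch at chr4:123104911-123105160 on the plus strand.
Bmp4: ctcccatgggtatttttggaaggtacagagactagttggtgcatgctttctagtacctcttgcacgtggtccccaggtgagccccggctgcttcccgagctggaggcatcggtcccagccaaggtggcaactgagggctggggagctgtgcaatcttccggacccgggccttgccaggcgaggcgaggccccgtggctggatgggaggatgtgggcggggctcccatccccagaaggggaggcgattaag
Bmp8b: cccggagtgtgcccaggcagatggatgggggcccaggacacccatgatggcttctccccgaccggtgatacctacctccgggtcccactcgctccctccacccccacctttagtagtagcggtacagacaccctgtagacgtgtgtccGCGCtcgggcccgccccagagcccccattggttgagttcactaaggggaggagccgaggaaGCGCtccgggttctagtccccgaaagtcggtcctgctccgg
The Bmp4 stretch is 63.2% G and C with 11 CpG and 0 GCGC. The Bmp8b stretch is 65.2% G and C with 17 CpG and 2 GCGC. The consensus, which is GCGC, any base, T and then GCGC again, was searched on both strands and was in neither promoter, and neither was the palindromic hexamer TGCGCA. Bmp1, Bmp2 and Bmp7 had no promoter at hand and were not searched. From its ChIP-seq of BV+ cells, the study names Bmps among upregulated genes bound by NRF1, and those data were not analysed here. Of all 32851 promoters in the table, 4.6% hold the consensus, 7.76% the hexamer and 47.1% a GCGC, which lies within both the consensus and the hexamer.

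Among the 83 pathway genes looked at, members included, 54 had a promoter in the table, and 1 of these held the consensus, namely Smad5, which encodes one of the receptor-activated SMADs. Its site is shown with the consensus in capitals, at chr13:56702950-56702979 (GRCm38.p6, plus strand).
Smad5: cactcccgacGCGCATGCGCcggccgccgc
The hexamer was in 3 of the 54, which were Bmper, Gdf7 and Smad6. A match is a description of letters in these windows only.

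For Bmp7, a primer pair for real-time PCR from the study's primer list is shown because it places the part of the transcript that the pair amplifies.
Bmp7 forward primer: acggacagggcttctcctac
Bmp7 reverse primer: atggtggtatcgagggtggaa
The forward primer lies in exon 1 (chr2:172939758-172939777) and the reverse primer in exon 2 (chr2:172916619-172916639) of the GENCODE vM21 transcript on GRCm38, which is read from the minus strand. All 20 and all 21 bases are coding, and the product spans 164 bases of the spliced transcript. The library values below count reads over the whole gene, not this stretch alone.

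Before the members are described, the labels were checked. Nrf1 itself had 95.7 and 99.4 CPM (read counts scaled to library size with TMM factors) in BV+ cells with NRF1 OE against 91.1 and 90.4 with Ctrl, and the log2 fold change of 0.10 (standard error 0.104) missed the threshold (adjusted p = 0.489). In BV- cells it had 119, 122 and 126 CPM with NRF1 OE against 99.1 and 105 with Ctrl (0.26, unadjusted p = 0.0189, adjusted p = 0.0718). Between the populations with NRF1 OE, edgeR called Nrf1 lower in BV+ than in BV- cells (-0.33, adjusted p = 0.0431). The gene behind the sorted reporter, Prdm1 (Blimp1), had 53.3 to 62.8 CPM in the BV+ libraries and 42.4 to 62.0 in the BV- libraries, with adjusted p = 1.00 and 0.998 between the populations with Ctrl and with NRF1 OE. None of the 9 germ cell markers was higher in BV+ than in BV- cells by the edgeR test, and 3 were lower with NRF1 OE, beside 3.85% of all genes. With NRF1 OE against Ctrl, 1 of the 9 was called higher in BV+ cells and 4 in BV- cells, beside 6.24% and 10.2% of all genes. Dppa3 (Stella), behind the second reporter, was called in both (0.64, adjusted p = 0.0252, and 0.84, adjusted p = 0.0317). With the replicate number as a term in the fit, 0 of the 9 were higher in either. Since Prdm1 and the germ cell markers do not separate the populations in the way the labels would, the groups are called BV+ and BV- cells here. Nrf1 was not called higher in the libraries labelled NRF1 OE of either population, though each of them lay above the Ctrl libraries of its population. In BV+ cells, 38.1% of all genes lay above Ctrl in the same way. The test on the transcript thus does not bear out that label, and a missed call does not refute it. Below, NRF1 OE and Ctrl stand for libraries so labelled, and a difference with NRF1 OE is a difference between them.

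Markers of several other cell types differed between the groups. In BV+ cells with NRF1 OE against Ctrl, 6.24% of all genes tested were called higher and 8.02% either way, the shares beside which the counts below stand. The summed level of 9 fibroblast and mesenchyme markers was 454 to 717 CPM in BV+ cells with NRF1 OE, 129 to 132 in BV+ cells with Ctrl, 20.4 to 27.3 in BV- cells with NRF1 OE and 16.2 to 21.9 in BV- cells with Ctrl. The collagen gene Col1a2, which is also in the list of BMP1 substrates below, made up 81.1% and 83.9% of the sum in BV+ cells with NRF1 OE, and the sum without it was 85.7 and 115 CPM there, against 29.2 and 30.3 in BV+ cells with Ctrl and at most 11.4 in a BV- library. By the edgeR test 4 of its 6 tested markers were higher with NRF1 OE than with Ctrl in BV+ cells, Thy1 and Twist1 were not called (-0.38 and 0.38), and 3 of its defining genes, Lum, Dcn and Prrx1, had fewer than 1 CPM in all 9 libraries. A list of 7 extraembryonic ectoderm and trophoblast markers, which includes the keratins Krt8 and Krt18, summed to 230 to 347, 122 to 123, 55.0 to 122 and 43.4 to 52.3 CPM in the same order of groups. In that list 2 of 4 tested markers were higher in BV+ cells with NRF1 OE, Prl3d1 was at 0 counts, and Elf5 had at most 1 count and Cdx2 at most 4 in a library. The 10 visceral and definitive endoderm markers summed to 39.4 to 39.5, 85.9 to 101, 77.8 to 131 and 153 to 241 CPM. Cubn alone accounted for 20.4 to 24.8, 62.0 to 73.3, 50.4 to 82.6 and 113 to 177 CPM of these sums. Between the NRF1 OE and Ctrl libraries of BV+ cells, edgeR called 1 of the 10 lower, which was Cubn (-1.59, adjusted p = 0.0127), and 0 higher. The median log2 fold change of the 10 was -0.86 there, beside 0.04 for all genes. The 8 primitive streak and mesoderm markers summed to 29.7 to 40.9, 22.6 to 26.8, 10.7 to 11.7 and 17.6 to 18.1 CPM. Kdr alone had 25.45 and 17.14 CPM in BV+ cells with NRF1 OE, and T, Mixl1 and Mesp1 had fewer than 1 CPM in all 9 libraries. Of the 6 tested markers of this list, Kdr was called higher in BV+ cells with NRF1 OE than with Ctrl (1.49, adjusted p = 0.0125) and Pdgfra lower (-1.17, adjusted p = 0.0174). The 5 neuroectoderm markers summed to 201 to 231, 168 to 179, 137 to 155 and 151 to 164 CPM, and 1 of 5 was called higher in BV+ cells with NRF1 OE than with Ctrl. The 7 pluripotent markers summed to 2225 to 2544, 2559 to 2696, 2979 to 3130 and 2815 to 2886 CPM. Of these, 2 were called lower in that comparison, Klf4 and Zfp42 (-0.67 each), and 0 higher. The 7 endothelial and blood markers had close sums, 123.5 to 172.2, 159.1 to 173.3, 168.6 to 187.3 and 178.7 to 185.3 CPM. There 1 of 4 tested markers, Cdh5, was called higher (1.59). In bulk RNA, a change in the number of cells of a type and a change in RNA per cell cannot be told apart, and the part of these markers in the results that follow was not tested.

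**Figure D1:**
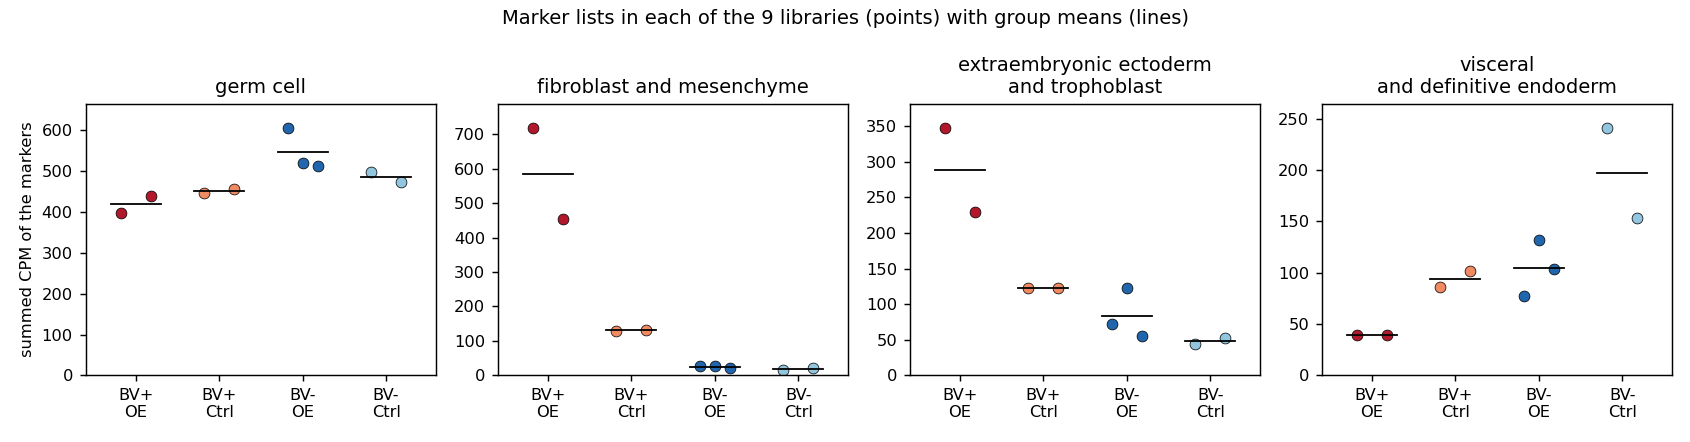
Summed CPM of 4 marker lists (vertical axes, from 0) in each of the 9 libraries (points), with the group means as lines. The germ cell list lies between 397 and 605 CPM in all libraries, the fibroblast and mesenchyme list is at 454 and 717 CPM in the 2 libraries of BV+ cells with NRF1 OE and at most 27.3 CPM in a BV- library, and the endoderm list is lowest in BV+ cells with NRF1 OE.

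Total counts ranged from 13702162 to 19625460, and TMM factors from 0.969 to 1.03. Counts also followed the GC content of transcripts to an extent that varied by library. Spearman's rho of GC content with the deviation of a library from the mean of all, taken across 14253 genes (genes are no replicates), was between -0.561 and -0.467 in the 4 Ctrl libraries, and 0.308, 0.00674, 0.0445, 0.666 and 0.531 in the NRF1 OE libraries. The 5 members lie between the 64th and 86th percentile of GC content, so their contrasts of NRF1 OE with Ctrl are also given with offsets for this trend where named.

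The levels of the members relative to each other were compared in the deposited FPKM, which divide by length. In BV+ cells with NRF1 OE, Bmp1 (4.24 ± 1.28 FPKM, SD, n = 2), Bmp7 (3.28 ± 0.544) and Bmp4 (2.99 ± 0.863) overlapped in range, and Bmp2 (0.80 ± 0.269) and Bmp8b (0.245 ± 0.0919) lay below them. Within each library the order was Bmp1, Bmp7, Bmp4, with 5.14, 3.66 and 3.6 FPKM in the first and 3.33, 2.89 and 2.38 in the second. In BV+ cells with Ctrl the order was Bmp4 (2.08 ± 0.368), Bmp7 (1.84 ± 0.0354), Bmp1 (1.47 ± 0.389), Bmp2 (0.25 ± 0.0566) and Bmp8b (0.18 ± 0.0424), where Bmp4 and Bmp7 overlapped and Bmp2 and Bmp8b met at the same value. In both BV- groups Bmp4 and Bmp7 again stood above the rest. Bmp4 had 1.61 ± 0.298 FPKM in the 3 NRF1 OE libraries and 2.11 ± 0.290 in the 2 Ctrl libraries, and Bmp7 had 1.49 ± 0.429 and 1.54 ± 0.0919. Bmp1 was next in the BV- groups with 0.52 ± 0.108 and 0.38 ± 0.113 FPKM, and Bmp2 and Bmp8b had at most 0.15 FPKM in any BV- library. Thus, in these FPKM, the rank of Bmp1 differed between the populations, from overlapping in range with the first ligands in BV+ cells with NRF1 OE to well below Bmp4 and Bmp7 in BV- cells. The FPKM of Bmp1 divide by 8862 bases, whereas its longest transcript in GENCODE vM21 has 5365. For Bmp4 these lengths are 2250 and 2064, and for Bmp7 4023 and 3670. The place of Bmp1 among the members within a group therefore depends on the length used.

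In the BV+ libraries labelled NRF1 OE, Bmp1 and Bmp2 rose about 3-fold against those labelled Ctrl, Bmp7 was higher in both libraries but missed the threshold after adjustment, and Bmp4 and Bmp8b did not pass. An adjusted p under 0.05 in edgeR's quasi-likelihood test, with Benjamini-Hochberg adjustment over all 16903 genes, was reached by 2 of the 5 members, both higher, where 8.02% of all genes tested were called and 6.24% were called higher. By the study's own threshold (unadjusted p under 0.05, log2 fold change beyond 0.58 either way), 3 of 5 members passed, against 17% of all genes. The 2 NRF1 OE libraries lay above both Ctrl libraries for 4 of 5 members, as they did for 38.1% of all genes.

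Bmp4, a BMP ligand that is needed for germ cell precursors in the mouse embryo, had a level of 8.19 and 5.33 CPM in BV+ cells given NRF1 OE, against 3.997 and 5.14 with Ctrl. The first NRF1 OE library was high and the second lay just above the higher Ctrl library. The log2 fold change was 0.56 (95% confidence interval -0.03 to 1.15, adjusted p = 0.169), and without the first NRF1 OE library it was 0.22.

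Bmp2, a close relative of Bmp4, had 69 and 40 counts with NRF1 OE and 11 and 19 with Ctrl, or 3.56 and 2.18 CPM against 0.721 and 0.997. Both NRF1 OE libraries stood above both Ctrl libraries, and the 2 NRF1 OE libraries also lay far apart. The log2 value of the change was 1.72 (standard error 0.409, adjusted p = 0.0343), a 3.29-fold rise with a 95% confidence interval from 1.77-fold to 6.12-fold. With offsets for GC content and length the value was 1.57 (adjusted p = 0.0280).

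Bmp7, the third TGF-beta family ligand among the members and a partner with which BMP2 and BMP4 can form heterodimers, had 14.9 and 11.6 CPM with NRF1 OE, compared with 7.14 and 7.34 for Ctrl. The 2 Ctrl libraries were close together and both NRF1 OE libraries lay above them. The log2 fold change was 0.87 (standard error 0.246, 95% confidence interval 0.33 to 1.41), with an unadjusted p of 0.00444 and an adjusted p of 0.0520. This sits just outside the threshold. DESeq2 on the same libraries gave an adjusted p of 0.0205, and the offsets for GC content and length gave 0.63 (adjusted p = 0.0545).

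Bmp8b, a ligand of the BMP8 pair, had 14 and 22 counts with NRF1 OE, compared with 12 and 11 for Ctrl. The groups overlapped in CPM (0.721 and 1.20 against 0.786 and 0.577). The log2 fold change was 0.50 with a 95% confidence interval from -0.57 to 1.57 (adjusted p = 0.485), so at this depth the interval holds both a lower level and one up to 2.96-fold higher. Bmp8a, the neighbouring paralog of nearly the same sequence, had 9 and 6 counts with NRF1 OE and 7 and 5 with Ctrl. How reads were divided between the pair is uncertain.

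Bmp1, the protease, had 894 and 541 counts with NRF1 OE and 158 and 287 with Ctrl, or 46.1 and 29.4 CPM against 10.4 and 15.0. Both NRF1 OE libraries were far above both Ctrl libraries, although the libraries within each group also differed clearly from each other. On the log2 scale this came to 1.56 (standard error 0.262, adjusted p = 0.0134), a 2.96-fold rise (95% confidence interval 1.99-fold to 4.40-fold), and 1.31 with offsets for GC content and length (adjusted p = 0.00425).

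These calls were lost when some single libraries were left out, and why they were lost was not tested. Without the first library of BV+ cells with NRF1 OE the log2 fold changes were 1.21 for Bmp1 (adjusted p = 0.171) and 1.32 for Bmp2 (adjusted p = 0.330), and without it 0% of all genes were called. Without the first Ctrl library of BV+ cells the adjusted p was 0.134 for Bmp1 and 0.184 for Bmp2, and without the second it was 0.166 and 0.226, again with 0% of all genes called. Bmp2 also missed the threshold without the first BV- Ctrl library (adjusted p = 0.0529). The direction was higher with NRF1 OE for all 5 members without any 1 library and under every other setting, and the plot of settings shows this for Bmp1, Bmp2 and Bmp7.

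**Figure D2:**
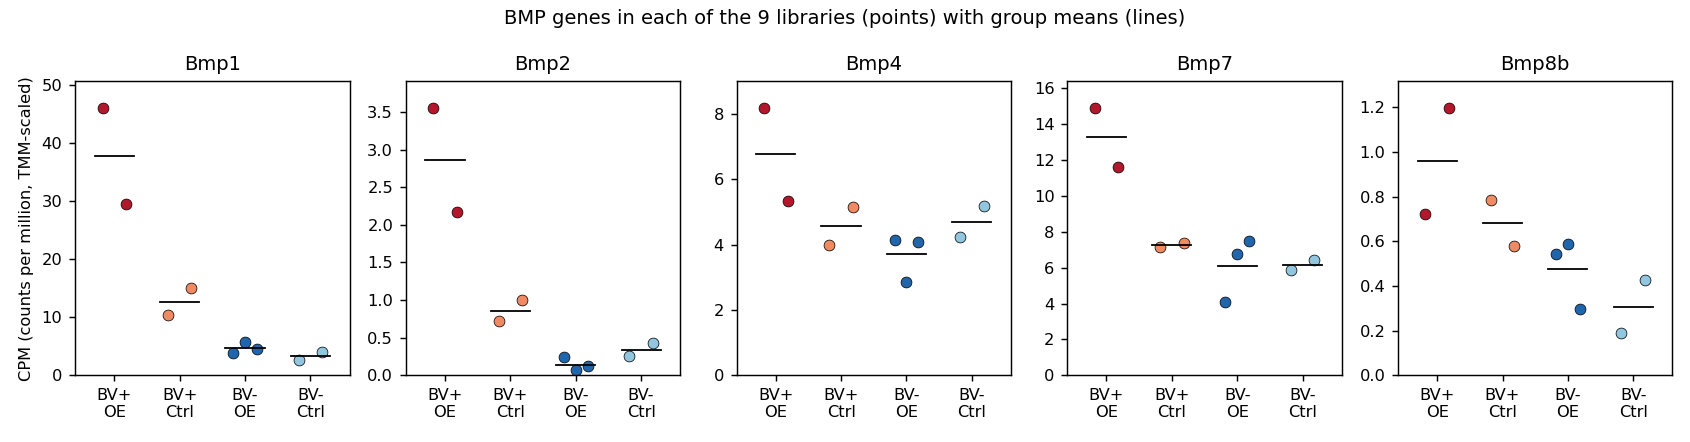
CPM (vertical axes, from 0) of the 5 members in each of the 9 libraries (points), by group, with the group means as lines. The 2 libraries of BV+ cells with NRF1 OE stand above the rest for Bmp1, Bmp2, Bmp4 and Bmp7, with the widest gap for Bmp1 and Bmp2, and Bmp8b has at most 1.20 CPM in any library.

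**Figure D3:**
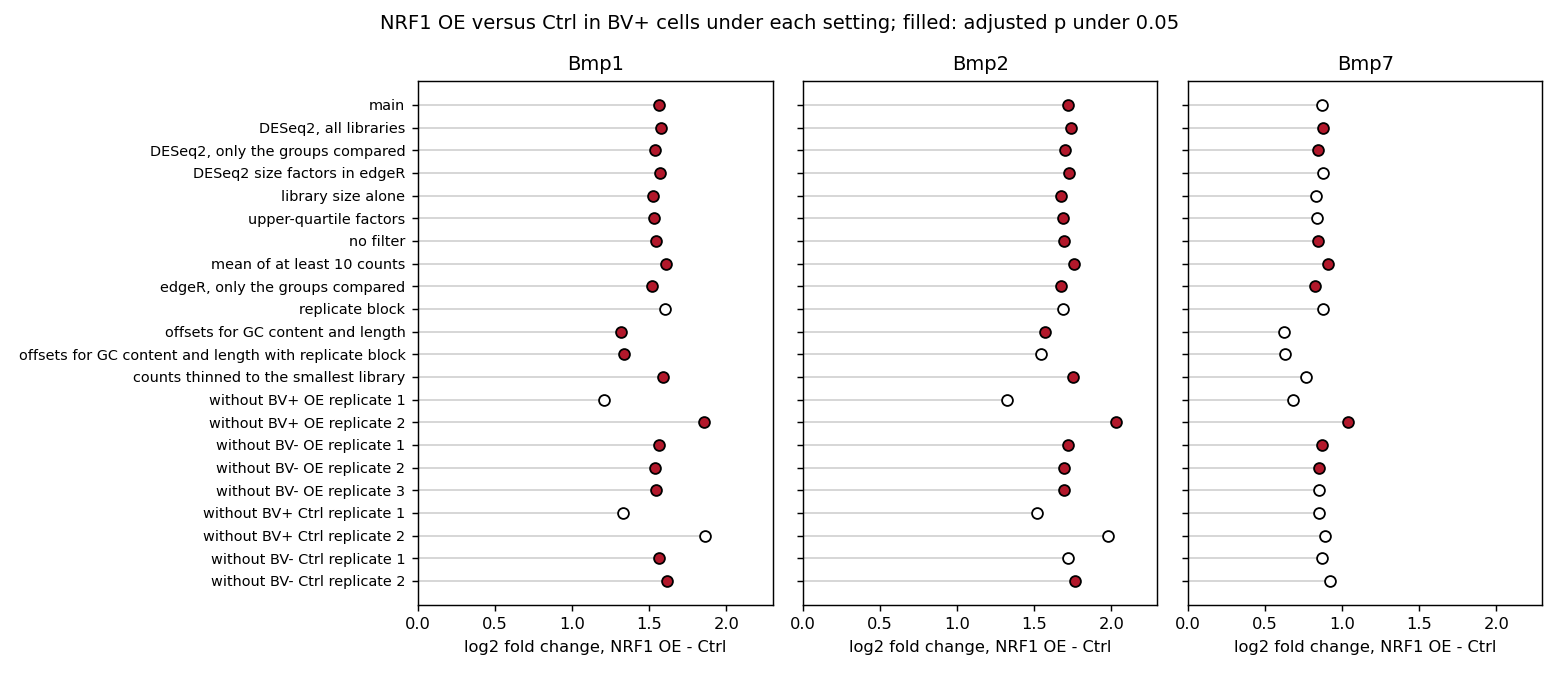
Log2 fold change of Bmp1, Bmp2 and Bmp7 for NRF1 OE versus Ctrl in BV+ cells (horizontal axes) in the reported fit (main) and 21 other settings (rows), with filled points where the adjusted p was under 0.05. All values lie above 0, and the points of Bmp1 and Bmp2 are open where a BV+ Ctrl library or the first BV+ NRF1 OE library is left out and with the replicate number as a term.

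In BV- cells no member passed the test between libraries labelled NRF1 OE and Ctrl, in a comparison in which 17.2% of all genes tested were called by edgeR. Of the 5 members, 0 had an unadjusted p under 0.05, which 39.1% of all genes had, and DESeq2 on the same libraries called 0 of the 4 to which it gave an adjusted p, with none given for Bmp8b. Bmp2 was scarce, with 4, 1 and 2 counts in the NRF1 OE libraries and 4 and 8 with Ctrl. Its NRF1 OE libraries lay just below the Ctrl libraries in CPM, with a log2 fold change of -1.18 (95% confidence interval -2.65 to 0.29, adjusted p = 0.211), the opposite sign to that in BV+ cells.

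Bmp4 in BV- cells had 4.15, 2.87 and 4.09 CPM with NRF1 OE, compared with 4.22 and 5.18 for Ctrl. The groups did not overlap, by a narrow margin, and the log2 fold change was -0.34 (95% confidence interval -0.90 to 0.22). Like Bmp2 it was thus lower in the 3 NRF1 OE libraries than in both Ctrl libraries, which held for 27.6% of all genes. Bmp7 had 4.09, 6.78 and 7.46 CPM against 5.86 and 6.41, so the Ctrl libraries fell within the range of the NRF1 OE libraries. Its log2 fold change was -0.01 (95% confidence interval -0.54 to 0.52). With offsets for GC content and length, the log2 fold change in BV- cells was -0.34 for Bmp7 (adjusted p = 0.303) and -0.57 for Bmp4 (unadjusted p = 0.0469, adjusted p = 0.189).

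Bmp1 in BV- cells had 3.91, 5.75 and 4.50 CPM with NRF1 OE and 2.65 and 4.06 with Ctrl, and the groups overlapped. The log2 fold change was 0.47 (95% confidence interval -0.19 to 1.13), and 0.22 with the offsets (adjusted p = 0.644). Bmp8b had 9, 8 and 5 counts against 3 and 8, also overlapping in CPM, with a log2 fold change of 0.56 (95% confidence interval -0.70 to 1.82) and 0.33 with the offsets (adjusted p = 0.763). Neither interval leaves out a change of the size found for Bmp7 in BV+ cells.

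Whether NRF1 OE acted differently in BV+ and BV- cells was tested as an interaction, since an effect called in one population and not in the other is not by itself a difference. None of the 5 members passed after adjustment in edgeR, and 0% of all genes did. DESeq2 called 0 of the 3 to which it gave an adjusted p, with none given for Bmp2 and Bmp8b. Before adjustment, 4 of 5 members had p under 0.05, against 5.51% of all genes tested, and all 4 had the larger effect in BV+ cells. The difference in log2 fold change was 2.90 for Bmp2 (95% confidence interval 1.16 to 4.64, unadjusted p = 0.00358, adjusted p = 0.571). It was 1.09 for Bmp1 (unadjusted p = 0.0181, adjusted p = 0.737), 0.88 for Bmp7 (unadjusted p = 0.0256, adjusted p = 0.785) and 0.90 for Bmp4 (unadjusted p = 0.0332, adjusted p = 0.825). Bmp8b had -0.06 (adjusted p = 0.997).

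**Figure D4:**
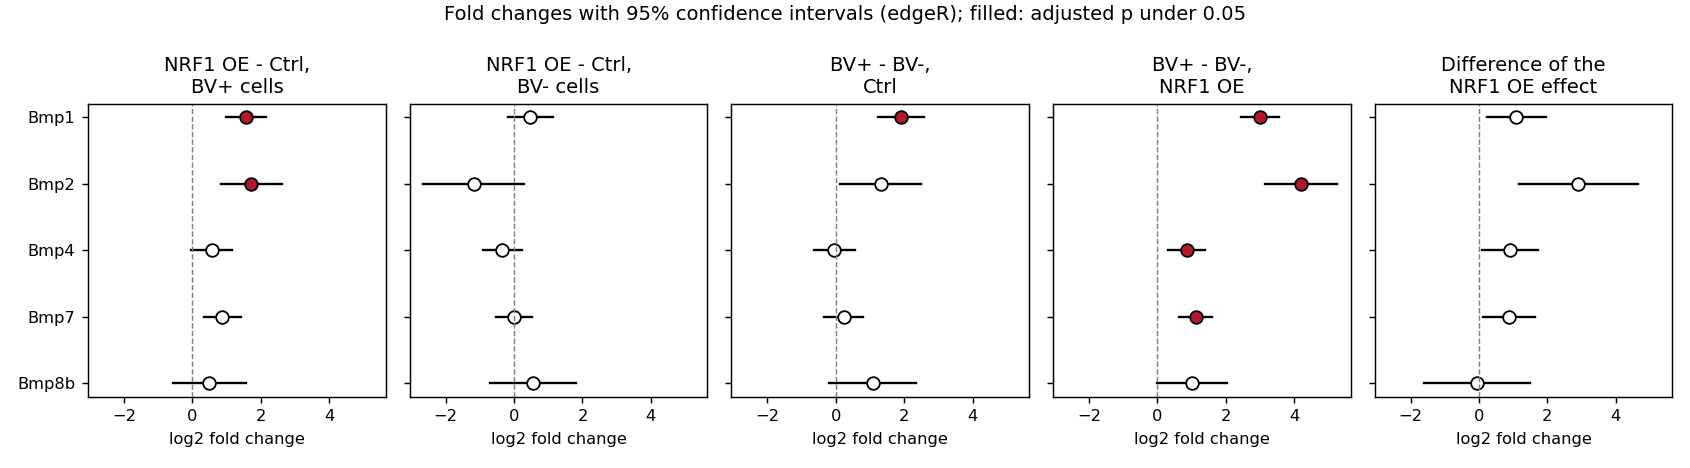
Log2 fold changes (horizontal axes) of the 5 members in the 4 comparisons and for the difference of the NRF1 OE effect, with 95% confidence intervals from edgeR as bars and filled points where the adjusted p was under 0.05. Bmp1 is filled in 3 panels, Bmp2 in 2, Bmp4 and Bmp7 in the panel of BV+ against BV- cells with NRF1 OE only, and no point is filled for the difference of the effect.

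Between the sorted populations without NRF1 OE, Bmp1 was the member that passed the test. In BV+ cells with Ctrl it had 10.4 and 15.0 CPM, and in BV- cells with Ctrl 2.65 and 4.06. Each BV+ library was above each BV- library, and the log2 difference was 1.91 (standard error 0.302, adjusted p = 0.0100), a 3.77-fold difference (95% confidence interval 2.38-fold to 5.96-fold). It was 1 of 5 members called by edgeR, in a comparison that called 1.12% of all genes, with 1.1% of all genes called higher. Without the second BV+ Ctrl library the adjusted p was 0.102, and without the first or the second BV- Ctrl library it was 0.173 or 0.0509, with log2 fold changes of 1.61, 1.65 and 2.24.

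No ligand among the members passed the test between the Ctrl populations, and the members were not tested against each other. Bmp2 had 11 and 19 counts in BV+ cells and 4 and 8 in BV- cells, with a log2 fold change of 1.31 (95% confidence interval 0.13 to 2.49, unadjusted p = 0.0319, adjusted p = 0.540). Bmp4 had nearly the same CPM in both populations, 3.997 and 5.14 against 4.22 and 5.18, with an interval of the log2 fold change from -0.64 to 0.57. Bmp7 had 7.14 and 7.34 CPM against 5.86 and 6.41, not overlapping but by a log2 fold change of only 0.24 (95% confidence interval -0.33 to 0.80). Bmp8b had 12 and 11 counts against 3 and 8, a log2 fold change of 1.08 (95% confidence interval -0.20 to 2.36). Thus 4 of 5 members had both BV+ libraries above both BV- libraries, which 22.6% of all genes did.

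Among the libraries labelled NRF1 OE, BV+ cells had more of all 5 members than BV- cells, and 4 of 5 passed the edgeR test. In this comparison 13.8% of all genes tested were called, and 9.9% were called higher. Both BV+ libraries were above all 3 BV- libraries for 5 of 5 members, and this held for 20.3% of all genes. The NRF1 OE libraries of BV+ cells are the same ones as in the comparison with Ctrl, so the values are not independent of those given for it.

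Bmp2 had the largest difference of the 5. Its 69 and 40 counts in BV+ cells stood against 4, 1 and 2 in BV- cells, a log2 difference of 4.21 (standard error 0.479, adjusted p = 0.000152). On counts summed over the libraries, 109 against 7, the ratio after scaling was 19.4 with a counting interval from 9.10 to 49.4, which covers counting error only. Bmp1 had 46.1 and 29.4 CPM against 3.91, 5.75 and 4.50, a log2 difference of 3.01 (standard error 0.250, adjusted p = 1.66e-05). Both calls held without any 1 library and under every other setting, with log2 fold changes between 3.81 and 4.77 for Bmp2 and between 2.65 and 3.29 for Bmp1.

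Bmp7 had 14.9 and 11.6 CPM in BV+ cells with NRF1 OE against 4.09, 6.78 and 7.46 in BV- cells, a log2 difference of 1.12 (standard error 0.224, adjusted p = 0.00685). Bmp4 had 8.19 and 5.33 CPM against 4.15, 2.87 and 4.09, with 0.86 (standard error 0.247, adjusted p = 0.0400). Both are smaller than the differences of Bmp1 and Bmp2. Without the first BV+ library with NRF1 OE, Bmp7 had 0.93 (adjusted p = 0.0958) and Bmp4 0.52 (adjusted p = 0.333). Bmp4 also missed the threshold without the third BV- library with NRF1 OE (adjusted p = 0.0609), without either BV+ Ctrl library (0.0576 and 0.0590) or either BV- Ctrl library (0.0581 and 0.0539), and on the 2 groups alone with DESeq2 (0.113) or edgeR (0.0903). Bmp8b had 14 and 22 counts against 9, 8 and 5, a log2 fold change of 1.01 (95% confidence interval -0.01 to 2.04, adjusted p = 0.183).

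Reads of 2 members can belong to another gene. Of the exon bases of Bmp4, 3.96% overlap Gm15217 on the opposite strand in the GRCm38 annotation. Of those of Bmp8b, 8.74% overlap Gm17244 and 3.43% overlap Ppie, both on the opposite strand. Whether the counting used strand is not given in the sources used here. No exon overlap was found for Bmp1, Bmp2 and Bmp7.

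Across the 9 libraries, the log2 CPM of Bmp1 and Bmp2 had a Pearson's r of 0.904, Bmp1 and Bmp7 0.876, Bmp2 and Bmp4 0.862, and Bmp4 and Bmp8b 0.273. These are descriptions over libraries that fall into 4 groups. Of the genes over 1 CPM on average, those most like Bmp1 were 6330403K07Rik (r = 0.995), Hdac7 (0.994) and Fign (0.993), and those most like Bmp2 were Usp3 (0.989), Lama4 (0.988) and Flrt2 (0.986). For Bmp7 they were Ckap4 (0.992), Zcchc18 (0.987) and Gpr153 (0.977), for Bmp4 Eef1akmt2 (0.985), Vma21 (0.959) and Gm14567 (0.936), and for Bmp8b Elp4 (0.945), Rbm24 (0.928) and Gm7931 (0.921). The top genes of the 5 members were different genes.

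The genes around the members in the pathway are given by lists, with the same edgeR test. With NRF1 OE against Ctrl in BV+ cells, 0% of all genes were called without the first NRF1 OE library or without either Ctrl library of BV+ cells, so every such call below is lost there, and Gdf11 and Eng also lost theirs without the second NRF1 OE library. In BV- cells, 0% of all genes were called with NRF1 OE when either BV+ Ctrl library or the first BV- Ctrl library was left out, and 0.00566% and 0.207% without the second BV- Ctrl or the third BV- NRF1 OE library. With the replicate number as a block, and in edgeR on the 2 groups alone, 0% of all genes were called in BV- cells, so none of the BV- calls below holds in those fits.

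The other BMP and GDF ligands were mostly too low to test. Of 17 listed, 5 were tested, and 1 of these, Gdf11, rose with NRF1 OE in BV+ cells, where 6.24% of all genes were called higher. Gdf11, a growth factor that signals mainly through activin-type receptors, had 9.63 and 8.60 CPM with NRF1 OE and 5.05 and 5.51 with Ctrl, a log2 fold change of 0.79 (adjusted p = 0.0458), and 0.65 with offsets for GC content and length (adjusted p = 0.0609). It was called in 9 of 21 other settings. In BV- cells 0 of 5 passed. Between the populations with NRF1 OE, Gdf11 was higher in BV+ cells (0.97, adjusted p = 0.00648) and Gdf3, a relative expressed in pluripotent cells, was lower (-0.55, adjusted p = 0.00765), as were 3.85% of all genes. Both missed the threshold without the first BV+ library with NRF1 OE (adjusted p = 0.0714 and 0.109). Among those not tested, Bmp5 had at most 7 counts, Bmp10 at most 8 and Gdf6 at most 9 in any library.

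Among the convertases and BMP1-type proteases, 7 of 8 were tested and 1 rose with NRF1 OE in BV+ cells, beside 6.24% of all genes. This was Furin, which encodes a convertase of BMP precursors, with a log2 fold change of 0.84 (adjusted p = 0.0204). Furin also rose in BV- cells (0.64, adjusted p = 0.0328), where 10.2% of all genes were called higher and 6.98% lower, and there Tll1, which encodes a protease of the BMP1 type, decreased by 1.82 in log2 units (adjusted p = 0.0394, and 0.0639 with the offsets). Tll1 was scarce, with 6, 3 and 16 counts in the BV- libraries with NRF1 OE and 29 and 36 with Ctrl. Pcsk5, another convertase gene, was higher in BV+ than in BV- cells with NRF1 OE (2.16, adjusted p = 0.00444, and 0.0791 without the first BV+ library with NRF1 OE).

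Among 12 tested antagonists and binders of 16 listed, 1 rose with NRF1 OE in BV+ cells, beside 6.24% of all genes, namely Nog, which encodes noggin. It had 79 and 63 counts with NRF1 OE and 17 and 17 with Ctrl, with no overlap between the groups, with a log2 change of 1.91 (standard error 0.319, adjusted p = 0.0134). In BV- cells Nog had 7, 4 and 4 counts against 7 and 10, and 0 of 12 antagonists passed. Between BV+ and BV- cells with NRF1 OE, 7 of 12 were higher, against 9.9% of all genes, among them Nog (3.53), the activin and BMP binder Fst (1.25) and Fstl1 (0.64). Without the first BV+ library with NRF1 OE 3 of 12 were higher, and with the replicate block 4. The median log2 fold change of the 12 in that comparison was 1.07, and that of all genes was -0.0049.

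Of the 15 receptors, co-receptors and SMADs, 2 rose with NRF1 OE in BV+ cells, beside 6.24% of all genes. These were Acvrl1, which encodes the type I receptor ALK1 (log2 fold change 1.88, adjusted p = 0.0387), and Eng, the gene of its co-receptor endoglin (0.59, adjusted p = 0.0392). With offsets for GC content and length Eng had 0.30 (adjusted p = 0.175). In BV- cells 3 of 15 were lower, against 6.98% of all genes: the type II receptor gene Bmpr2 (-0.93, adjusted p = 0.0407), the type I receptor gene Bmpr1a (-0.78, adjusted p = 0.0317) and Smad5 (-0.45, adjusted p = 0.0473). With the offsets Bmpr2 had -0.30 (adjusted p = 0.208), Bmpr1a -0.36 (adjusted p = 0.0417) and Smad5 -0.12 (adjusted p = 0.390). Smad5, whose consensus match is shown above, had 44.0, 32.6 and 43.2 CPM with NRF1 OE and 58.04 and 51.59 with Ctrl in BV- cells, but 57.9 and 65.5 against 64.7 and 66.4 in BV+ cells, a log2 fold change of -0.09 there. Between the populations with NRF1 OE 5 of 15 were higher in BV+ cells, against 9.9% of all genes. The named ones were Acvrl1 (3.29), Bmpr2 (1.03) and the co-receptor gene Rgma (0.86). Without either BV+ library with NRF1 OE, or in edgeR on the 2 groups alone, 2 of 15 were higher, and with the replicate block 3. Bmpr2 (adjusted p = 0.105) and Rgma (adjusted p = 0.205) missed the threshold without the first of these libraries.

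Of 11 BMP target genes, all tested, 4 rose with NRF1 OE in BV+ cells, beside 6.24% of all genes. The 3 of largest change were Id3, an inhibitor of basic helix-loop-helix factors (1.71, adjusted p = 0.0134), the pseudoreceptor gene Bambi (1.05, adjusted p = 0.0184) and the inhibitory SMAD gene Smad6 (0.87, adjusted p = 0.0367, but 0.46 and adjusted p = 0.0792 with the offsets). The median log2 fold change of the 11 was 0.87, beside 0.04 for all genes. In BV- cells 1 of 11 rose, beside 10.2% of all genes. This was Smad6 (0.66, adjusted p = 0.0491, but 0.24 and adjusted p = 0.377 with the offsets), and the median of the 11 was -0.07. With NRF1 OE 7 of 11 were higher in BV+ than in BV- cells, against 9.9% of all genes. The 3 of largest difference were the homeobox genes Msx1 (3.16) and Msx2 (1.78) and Id3 (2.42). Without the first BV+ library with NRF1 OE, and with the replicate block, 4 of 11 were higher, and Msx2 missed the threshold in both (adjusted p = 0.202 and 0.0576). These genes respond to other signals too, and SMAD activity was not measured.

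Of the substrates of the BMP1 protease and other fibrillar matrix genes, 9 of 11 were tested, and 8 rose with NRF1 OE in BV+ cells, with a median log2 fold change of 1.76 beside 0.04 for all genes. Of all genes, 6.24% were called higher there. The largest changes were those of the collagen genes Col1a2 (2.26, adjusted p = 0.00966), Col5a2 (2.13, adjusted p = 0.0107) and Col1a1 (1.96, adjusted p = 0.00669). Col1a1 had 80.2 and 65.9 CPM with NRF1 OE, 17.7 and 19.9 with Ctrl and at most 3.39 in a BV- library. Between the Ctrl populations 5 of 9 were higher in BV+ cells, with Col3a1 (3.92), Col1a2 (3.46) and the proteoglycan gene Bgn (3.15) as the named ones, and with NRF1 OE 9 of 9 were, with Col1a2 (5.08), Bgn (4.59) and Col1a1 (4.57). In the same order, 1.1% and 9.9% of all genes were called higher in BV+ cells. Between the Ctrl populations 3 of 9 were higher without the first BV- Ctrl library. In BV- cells 1 of 9 rose with NRF1 OE, beside 10.2% of all genes. This was Col3a1 (2.08, adjusted p = 0.0436), which missed the threshold whichever library was left out and with the offsets (adjusted p = 0.0774). Some of these collagens are also in the fibroblast and mesenchyme marker list given above.

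**Figure D5:**
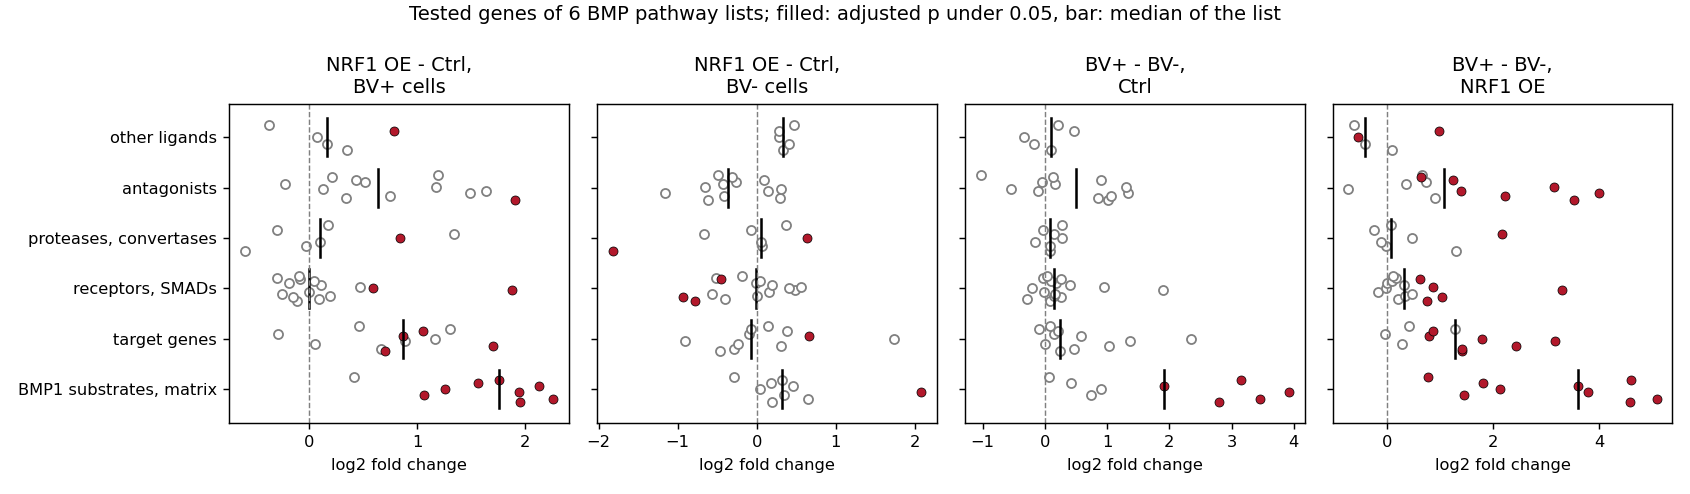
Log2 fold changes (horizontal axes) of the tested genes of 6 lists around the members (rows) in the 4 comparisons, with filled points where edgeR's adjusted p was under 0.05 and a bar at the median of each list. The matrix list is shifted to the right in 3 panels, and in BV- cells with NRF1 OE against Ctrl most points of every list are open.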

How the data were processed

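RNA-seq of BV+ and BV- cells, sorted from differentiated BVSC PSCs with NRF1 OE or Ctrl, was analysed starting with the deposited per-gene tables. The authors used HISAT2 2.0.1 to map reads to GRCm39 and HTSeq 0.6.1 for counting. They deposited a raw count and FPKM for each gene, and the counts are not normalized. FPKM were used here only to compare levels between genes. The strand setting of the counting is not given in the sources used here. Total counts were 13702162 to 19625460, and 0 rows name no gene.

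The test was edgeR's (4.0.16, R 4.3.3) two-sided quasi-likelihood F test. All 9 libraries entered 1 model whose terms were the 4 groups, with TMM scaling and filterByExpr, which left 16903 of 33142 genes with a count. The groups shared 1 estimate of spread per gene, although their spread was unlike. A chi-square between libraries of a group, per gene, was 2.99 in BV+ Ctrl, 6.59 in BV- Ctrl and 20.2 in BV+ NRF1 OE. In BV- NRF1 OE it was 12.3 to 34.7. P-values were adjusted by the Benjamini-Hochberg method over all genes tested, and called means an adjusted p under 0.05. Log2 CPM used a prior count of 2. Counts are integers with sampling error, so members under about 20 counts, Bmp2 and Bmp8b in part, are the least precise.

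Alternatives were DESeq2 1.42.0 on all libraries or on the groups compared, its size factors in edgeR, upper-quartile factors or none beyond library size, no filter or a mean of at least 10 counts, an edgeR fit of only those groups, thinning to the depth of the smallest library, a block for replicate number, offsets for GC content and length (known for 98.6% of the genes tested), and each library left out. A crossed pairing was added after seeing the data. The procedure was run on simulated counts with the same spread of a gene in every group. That cannot show how it fares where groups differ in spread. GC content, overlaps and transcripts came from GENCODE vM21 on GRCm38, and promoters from RefSeq on GRCm38.p6. Figures used Python 3.11.15 and matplotlib 3.10.9.

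The members and the gene lists were chosen with earlier results of these data known. All members were named in every comparison. Of each pathway list, up to 3 genes higher and 3 lower with the largest absolute log2 fold change were named among those called with a mean of at least 1 CPM. Ligands of the lists with few counts (Bmp5, Bmp8a, Bmp10 and Gdf6) could be named by their counts. Genes most like a member were the 3 of highest Pearson's r of log2 CPM with a mean over 1 CPM. ChIP-seq, RT-PCR and flow cytometry were not analysed here.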

Additional observations from a re-analysis of the deposited data

How the results depend on the processing

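The number of members called was within 1.5 times the reported one except in these cases. For NRF1 OE versus Ctrl in BV+ cells, 2 were called, but 0 with the replicate number as a block, 1 with offsets for GC content and length together with the block, and between 0 and 3 when 1 library was left out. For BV+ versus BV- cells, 1 was called with Ctrl and between 0 and 1 when 1 library was left out, and 4 were called with NRF1 OE and between 2 and 4 when 1 library was left out. The cause of these losses was not tested. Of the members' log2 fold changes under the alternatives, 472 kept direction and side of the threshold, 24 lost the call, 8 gained it and 14 changed sign. The sign changes were in 3 contrasts. Bmp7 with NRF1 OE in BV- cells had 0.00379 with upper-quartile factors and -0.19 to 0.22 with a library left out. Bmp4 between the Ctrl populations had 0.0373 with offsets, 0.0401 with offsets and the block, 0.0648 thinned, and -0.24 to 0.12 with a library left out. The interaction for Bmp8b had 0.00524 with offsets and -0.72 to 0.36 with a library left out.

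The labels name no shared origin for libraries of the same number, and the samples were not taken as paired. Deviations from the group means of same-numbered libraries had r between -0.428 and 0.348 over 14375 genes, and r was positive only between BV- cells with NRF1 OE and with Ctrl (0.309 and 0.348). With the replicate block, Bmp1 and Bmp2 in BV+ cells with NRF1 OE versus Ctrl had log2 fold changes of 1.60 and 1.69 with adjusted p = 0.0545 and 0.0947, Bmp4 between the populations with NRF1 OE had adjusted p = 0.119, and no other member's call changed. Of the pathway genes higher in that BV+ comparison, the block called 2 matrix genes against 8, 0 targets against 4 and 0 genes of the other lists. The block left 0.0177% of all genes called in BV+ cells, against 8.02%, and 0% in BV- cells, against 17.2%, so all pathway calls in BV- cells were lost with it. Between the populations with NRF1 OE it called 4 antagonists against 7, 3 receptors and SMADs against 5, 4 targets against 7 and 9 matrix genes against 9. For BV+ versus BV- cells with Ctrl, where the deviations had r = -0.151, the crossed pairing, chosen after seeing the data, called 0 members.

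The share of all genes called also moved with the fit: in BV- cells it was 17.2% in the fit of all libraries and 0% in edgeR on those groups alone, and in BV+ cells 8.02% and 26.8%. Of the genes called with NRF1 OE, 77.8% were higher in BV+ cells and 59.5% in BV- cells, but 60.2% and 50.3% with upper-quartile factors and 69.8% and 45.1% with library size alone. The mean level of Bmp7 in BV+ cells with Ctrl was 7.41 CPM by library size alone. Depth limits Bmp2 and Bmp8b most, with as few as 1 and 3 counts in a library.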
